A study of Mus musculus with 6 samples.

Results

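The vascular endothelial growth factor (VEGF) family was followed in MIN6 cells, mouse insulinoma cells that serve as a beta cell model, after knockdown of the homeobox factor Hlxb9 (gene symbol Mnx1). Its members were the ligand genes Vegfa, Vegfb, Vegfc, Vegfd and Pgf and the receptor genes Flt1, Kdr and Flt4. They were found by symbol in the platform annotation, with Figf accepted as an older name of Vegfd, which gave 17 of 45037 probe sets, or 8 of 18193 genes. The choice was made with results of the same siRNA contrast known, so the members' differences between the siRNAs are given as a description.

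The Hlxb9 siRNA group has 3 arrays of MIN6 cells transfected with an siRNA against mouse Hlxb9 (from Dharmacon), and the control siRNA group has 3 arrays of the same line transfected with a scrambled siRNA (from Qiagen), so the siRNAs also differ in their maker. Both groups were nucleofected and given RNAiMax, were grown with 15% serum, and gave total RNA at 72 hours, labelled as biotinylated cRNA from 6 ug. The preparations put on arrays were chosen by a western blot that showed Hlxb9 protein lower by more than 75%, and every array is of a single cell line, which the labels call sorted without naming a gate. Arrays are numbered 1 to 3 in each group, and nothing in the labels says whether a number marks a shared culture or day, so p-values measure only the spread between these samples.

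VEGF ligands are secreted dimers that bind receptor tyrosine kinases. Vegfa, acting through Kdr, drives growth and permeability of blood vessels, and Vegfa made by beta cells is known to keep islets rich in capillaries. Vegfb and Pgf bind Flt1, which also takes up Vegfa as a decoy, while Vegfc and Vegfd act through Flt4 on lymphatic endothelium.

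A probe set is a group of short probes for one transcript, and its signal is the log2 value of RMA, which corrects background, equalizes the arrays and summarizes the probes. A difference of 1 log2 unit is a doubling. Of the 17 probe sets, 10 read ligands and 7 read receptors. None passed the limma test of Hlxb9 siRNA against control siRNA (0 of 17, adjusted p from 0.645 to 0.996, with 0% of all 45037 probe sets called). At an unadjusted limma p of 0.05 there were 2 member probe sets, both of Vegfd and both higher, beside 7.62% of all probe sets (3.86% higher and 3.76% lower), and nothing is read from that count because the same contrast was in view when the family was chosen. The largest difference belonged to Vegfd, at 1.43-fold higher signal after Hlxb9 siRNA on one of its probe sets. Vegfa was 12.4% lower on its brighter probe set, with groups that overlapped. The receptor probe sets had small differences of either sign.

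The windows before the first transcribed base are shown for Vegfd, Vegfa and Vegfc, the ligand genes with a probe set whose signal lay on the same side within all 3 equal-numbered array pairs. Each is 250 bases of RefSeq sequence (GRCm38.p6), 5′ to 3′ on the gene's strand. The Vegfd window is chrX:164373272-164373521 (plus strand), that of Vegfa chr17:46032378-46032627 (minus strand) and that of Vegfc chr8:54077282-54077531 (plus strand). Capitals mark matches, on either strand, to ACGTG or GCGTG, the core letters of hypoxia response elements, or to TAAT, the core letters of homeodomain sites.
Vegfd: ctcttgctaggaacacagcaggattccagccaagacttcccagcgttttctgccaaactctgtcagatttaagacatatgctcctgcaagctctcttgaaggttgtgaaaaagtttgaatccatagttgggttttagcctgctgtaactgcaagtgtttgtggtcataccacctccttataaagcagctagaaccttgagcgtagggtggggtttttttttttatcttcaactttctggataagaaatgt
Vegfa: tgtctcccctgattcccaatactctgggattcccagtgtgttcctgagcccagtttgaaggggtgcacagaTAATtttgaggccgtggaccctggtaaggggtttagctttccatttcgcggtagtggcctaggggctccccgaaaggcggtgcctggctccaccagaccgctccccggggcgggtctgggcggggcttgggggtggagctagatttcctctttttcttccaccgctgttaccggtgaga
Vegfc: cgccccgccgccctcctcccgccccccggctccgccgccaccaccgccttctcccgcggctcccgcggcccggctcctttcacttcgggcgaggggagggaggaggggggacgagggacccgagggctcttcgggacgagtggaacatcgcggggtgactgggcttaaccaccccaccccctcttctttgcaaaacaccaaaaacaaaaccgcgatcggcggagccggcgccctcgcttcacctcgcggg
The Vegfa window holds 1 TAAT, and the windows of Vegfd and Vegfc hold 0 of any of these letters. RefSeq gives Vegfa a further window at a start 7214 bases downstream (chr17:46025164-46025413, minus strand), not printed here, which holds 1 ACGTG, 1 GCGTG and 1 TAAT. Of 32851 RefSeq windows of the same length, 54.9% hold TAAT on either strand, 16.6% ACGTG and 28.2% GCGTG. The longer homeodomain site TAATTA, which contains TAAT, is in 4.84% of all windows and in 0 of the 3 printed. A match is letters in a window and not a bound site, and no match says nothing of letters further away. The Vegfd window is the poorest in G and C, at 42.4%, against 59.2% for Vegfa and 71.6% for Vegfc.

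Mnx1, the targeted gene, read 7.53, 7.41 and 7.28 log2 in the Hlxb9 siRNA arrays, against 7.82, 7.50 and 7.77 in the control siRNA arrays. The difference of -0.29 ± 0.13 log2 (SE) did not pass (limma adjusted p = 0.659, exact two-sided permutation p = 0.2, where 3 against 3 arrays allow no p below 0.1). The mean signal was 18.0% lower after Hlxb9 siRNA, with a 95% interval of the difference from -0.58 to 0.01 log2. Of 15 listed beta cell markers, 12 were measured and all 12 exceeded the median of all values, 5.16, on every array, with the islet hormone genes Iapp and Ins2 and the granule protein gene Chga brightest. Control replicate 3 stood apart. It correlated with the other arrays at 0.988 to 0.991, against 0.995 or more among the other 5, and its Gapdh control probe sets read 2.13 log2 more at the 3′ than at the 5′ end, against 0.69 to 0.73 in the Hlxb9 siRNA arrays and 0.65 and 0.78 in the other control siRNA arrays. Differences without that array are given beside those of the members and named genes that it moved by over 1.5 times or turned in sign, and the part of this 3′ excess in any result was not tested.

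**Figure D1:**
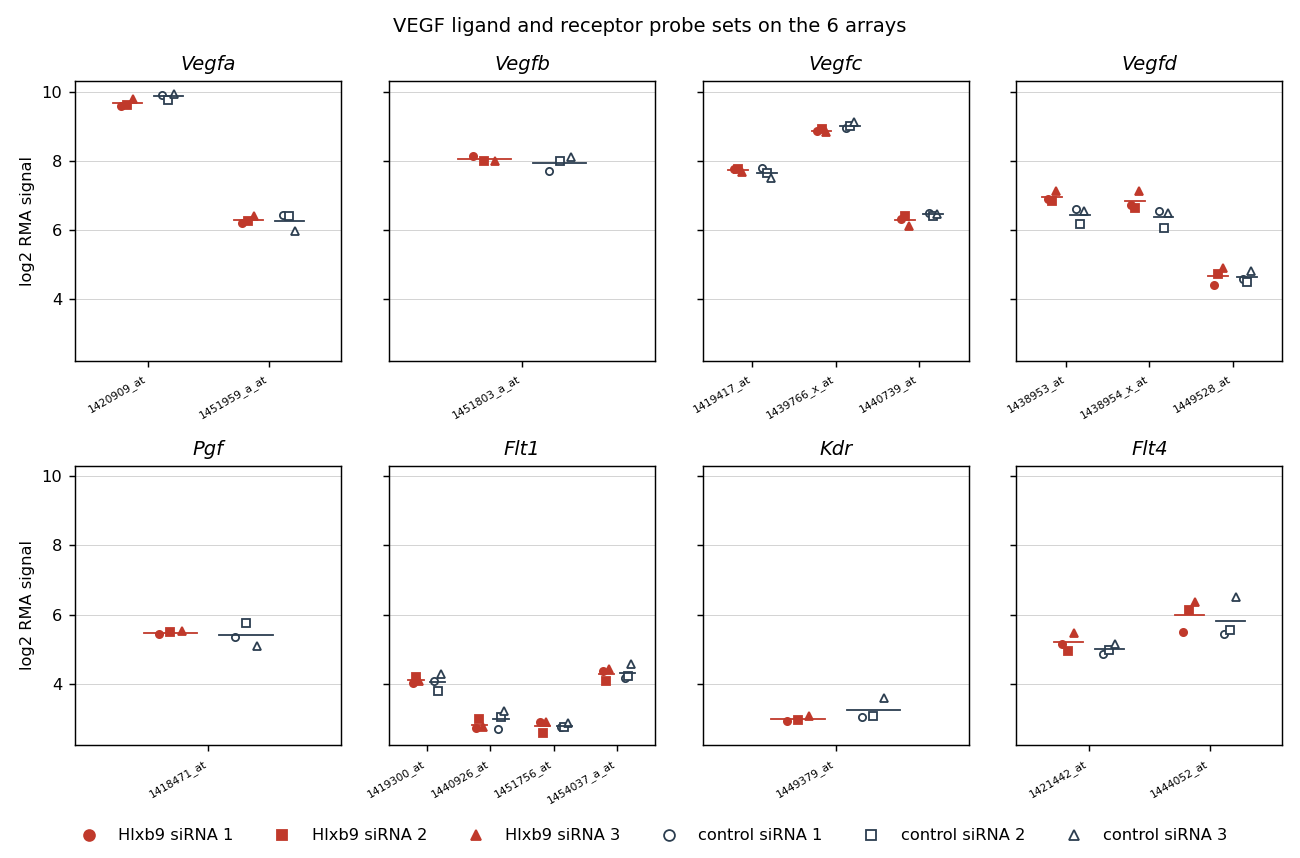
Log2 RMA signal (y axis) of the 17 probe sets (x axis), in a panel per gene, with filled red symbols for the 3 Hlxb9 siRNA arrays, open dark symbols for the 3 control siRNA arrays and a bar at each group mean. The Vegfd probe sets 1438953_at and 1438954_x_at and the Vegfc probe set 1439766_x_at are the 3 whose groups do not overlap.

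Vegfd, the lymphatic growth factor, has 3 probe sets. On 1438953_at the signal was 6.90, 6.85 and 7.14 log2 in the Hlxb9 siRNA arrays, against 6.62, 6.16 and 6.56 in the control siRNA arrays. Every Hlxb9 siRNA array lay above every control, and control replicate 2 was the lowest of the 6. The difference was 0.51 ± 0.15 log2 (SE, n = 3 each, 95% interval 0.16 to 0.87), or 42.9% higher signal. On 1438954_x_at the arrays read 6.72, 6.64 and 7.14 after Hlxb9 siRNA, against 6.55, 6.06 and 6.49 after control siRNA. The groups again did not overlap, Hlxb9 siRNA replicate 2 and control replicate 1 stood close together, and the difference was 0.47 ± 0.18. These probe sets followed each other over the 6 arrays (Pearson r = 0.976), and because they read the same gene they are not separate evidence.

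The remaining Vegfd probe set, 1449528_at, behaved otherwise. It read 4.40, 4.72 and 4.90 log2 in the Hlxb9 siRNA arrays, against 4.59, 4.50 and 4.81 in the control siRNA arrays. The groups overlapped, with Hlxb9 siRNA replicate 1 the lowest array, and the difference was 0.04 ± 0.15 (SE). Its r with the others was 0.424 and 0.534, and it stood at the 44.8th percentile of probe sets, where the others stood at the 62.9th and 62.0th. Brightness depends on the probes as well as on the transcript, so a percentile places a probe set on the array and does not rank transcripts. In the pairs of equal number, 1438953_at was higher after Hlxb9 siRNA by 0.28, 0.69 and 0.58 log2, 1438954_x_at by 0.17, 0.58 and 0.65, and 1449528_at differed by -0.18, 0.22 and 0.09. Without control replicate 3 the differences were 0.57, 0.53 and 0.13.

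With array weights, a fit that leans on the arrays numbered 2, limma called 1438953_at (0.68 log2, adjusted p = 0.0401) and did not call 1438954_x_at (0.61, adjusted p = 0.0563). That made 1 of 17 member probe sets, beside 2.51% of all probe sets. The weighted fit called 0 members and 0 probe sets of the whole table on leaving out any single array of the 6.

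Vegfa, the main vascular ligand, has 2 probe sets. The brighter, 1420909_at at the 86.6th percentile, read 9.59, 9.62 and 9.79 log2 in the Hlxb9 siRNA arrays, against 9.89, 9.75 and 9.94 in the control siRNA arrays. The groups overlapped only where Hlxb9 siRNA replicate 3 lay above control replicate 2. The difference was -0.19 ± 0.11 log2 (SE, 95% interval -0.44 to 0.06), and all 3 pairs of equal number were negative, at -0.30, -0.13 and -0.15. The dimmer, 1451959_a_at, read 6.21, 6.27 and 6.39 after Hlxb9 siRNA, against 6.42, 6.39 and 5.98 after control siRNA. Control replicate 3 was its lowest array, whereas it was the highest array of 1420909_at. The difference on 1451959_a_at was 0.02 ± 0.14 with all arrays and -0.12 ± 0.10 without control replicate 3. Over 6 arrays the probe sets of Vegfa had an r of -0.153, and over the 5 arrays without control replicate 3 an r of 0.947.

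**Figure D2:**
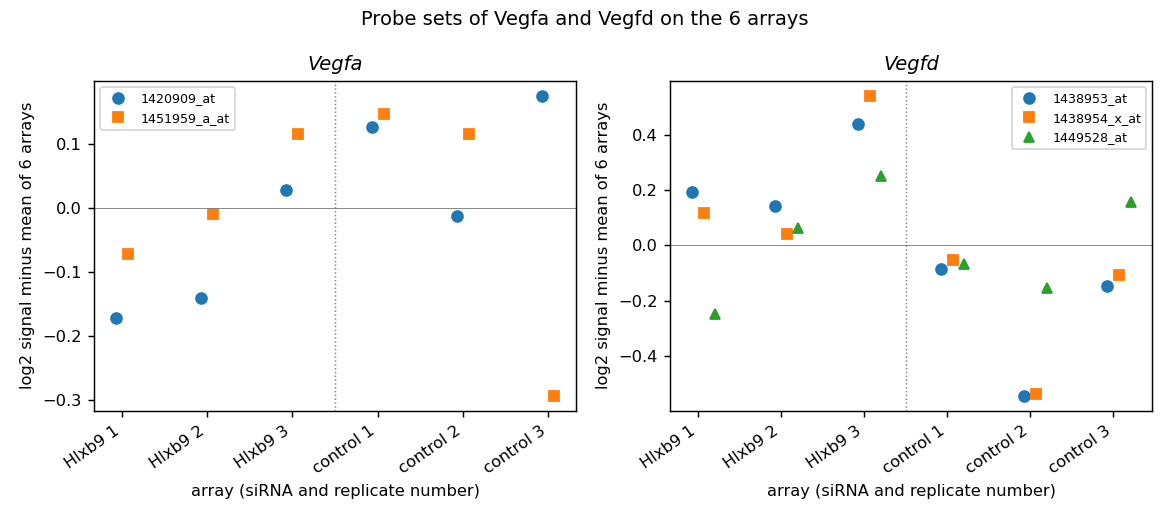
Log2 signal of each Vegfa (left) and Vegfd (right) probe set relative to its own mean over the 6 arrays (y axis), with Hlxb9 siRNA arrays left and control siRNA arrays right of the dotted line. The Vegfa probe sets part on control replicate 3, which read 9.94 on 1420909_at and 5.98 on 1451959_a_at, and 1438953_at and 1438954_x_at of Vegfd run together.

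Vegfc, the other ligand of Flt4, has 3 probe sets that did not share a sign. On 1439766_x_at the arrays read 8.85, 8.90 and 8.82 log2 after Hlxb9 siRNA, against 8.95, 8.99 and 9.11 after control siRNA. Each array of Hlxb9 siRNA was under each control, with a difference of -0.16 ± 0.10 (SE). The suffix _x_at marks probes that can bind related sequences. On 1440739_at they read 6.31, 6.41 and 6.12, against 6.51, 6.39 and 6.47, which overlap, with a difference of -0.18 ± 0.11. On 1419417_at they read 7.75, 7.77 and 7.69 after Hlxb9 siRNA, against 7.79, 7.66 and 7.51 after control siRNA. Here the lowest array was control replicate 3, and the difference was 0.08 ± 0.11, or 0.01 ± 0.10 without that array.

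Vegfb and Pgf, the ligands of Flt1, were each read by a single probe set with overlapping groups. Vegfb read 8.14, 7.98 and 8.01 log2 in the Hlxb9 siRNA arrays, against 7.71, 7.998 and 8.11 in the control siRNA arrays. Control replicate 1 was low and the other 5 arrays lay within a narrow band, which gave a difference of 0.10 ± 0.13 (SE). The difference was -0.01 without control replicate 1 and 0.19 without control replicate 3. Pgf, the placental growth factor, read 5.43, 5.49 and 5.52 after Hlxb9 siRNA, against 5.36, 5.76 and 5.08 after control siRNA. Its controls spread on both sides of the Hlxb9 siRNA arrays (SD 0.34 in controls and 0.04 after Hlxb9 siRNA). The difference was 0.08 ± 0.17 with all arrays and -0.08 ± 0.14 without control replicate 3.

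Among the receptors, 1 of 7 probe sets exceeded 5.16, the median of all values, on every array, while 8 of 10 ligand probe sets did. No receptor probe set separated the groups. Flt1, the high-affinity receptor that also exists as a soluble trap, has 4 probe sets between the 6.91st and 40.5th percentiles. The brightest, 1454037_a_at, read 4.36, 4.08 and 4.42 log2 after Hlxb9 siRNA, against 4.17, 4.23 and 4.56 after control siRNA, a difference of -0.04 ± 0.15 (SE). The other 3 differed by 0.05 ± 0.14 (1419300_at), -0.17 ± 0.15 (1440926_at) and 0.0040 ± 0.12 (1451756_at). Their r with one another over 6 arrays ranged from -0.254 to 0.830, and 1 pair of the 6 exceeded 0.5. Without control replicate 3 the brightest turned to 0.08, and the others were 0.17 (1419300_at), -0.05 (1440926_at) and 0.04 (1451756_at). Leaving out other arrays moved them as well. Without Hlxb9 siRNA replicate 2 the brightest was 0.07 and 1451756_at was 0.11. Without control replicate 2, 1419300_at turned to -0.07, and without control replicate 1, 1440926_at was -0.31.

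Kdr, the main signalling receptor of Vegfa, was read by 1 probe set at the 15.5th percentile. Its arrays read 2.92, 2.95 and 3.06 log2 after Hlxb9 siRNA, against 3.05, 3.06 and 3.59 after control siRNA. Control replicate 3 alone was high, and the groups overlapped. The difference of -0.26 ± 0.16 (SE) was -0.08 ± 0.10 without control replicate 3.

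Flt4, the receptor of Vegfc and Vegfd, has 2 probe sets. On 1421442_at the arrays read 5.16, 4.95 and 5.48 log2 after Hlxb9 siRNA, against 4.86, 4.96 and 5.15 after control siRNA, a difference of 0.20 ± 0.16 (SE). On 1444052_at they read 5.49, 6.12 and 6.35, against 5.43, 5.54 and 6.50. Both arrays numbered 1 were low and both numbered 3 high, a span of 1.07 log2, while the siRNA difference was 0.16 ± 0.32. It was 0.50 ± 0.24 without control replicate 3.

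**Figure D3:**
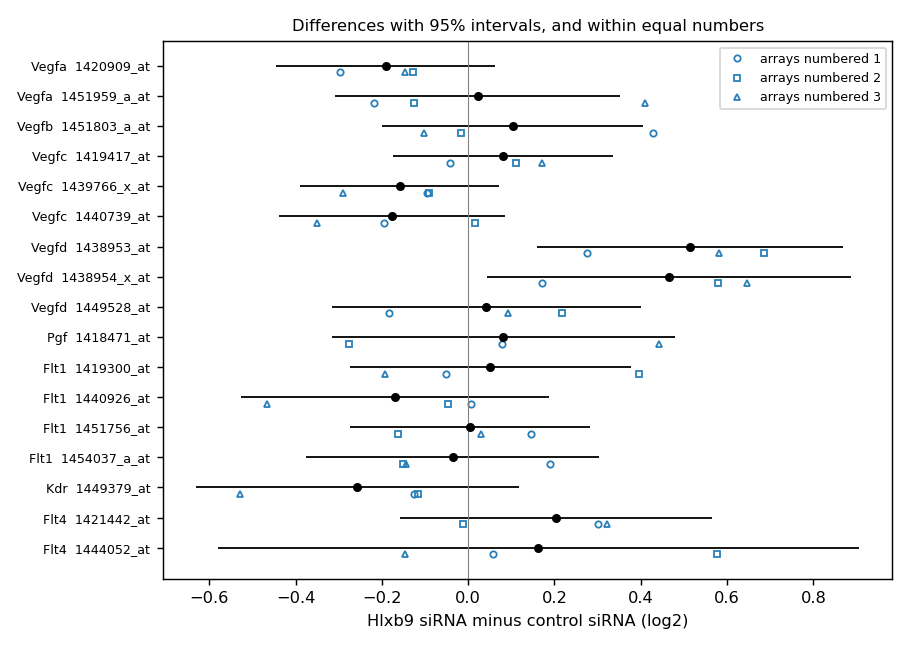
Difference of Hlxb9 siRNA minus control siRNA in log2 (x axis) for each probe set (y axis), with black points and bars for limma's estimate and 95% interval and open blue symbols for the differences within arrays of equal number. The intervals of 1438953_at (0.16 to 0.87) and 1438954_x_at (0.04 to 0.89) of Vegfd lie above 0, and the other 15 include 0. Intervals are not adjusted for the number of probe sets, and neither of these 2 passed (limma adjusted p = 0.645 and 0.653). At the matching unadjusted limma p of 0.05 stood 7.62% of all probe sets, and nothing is read from the 2.

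Over the family, 3 of 17 probe sets had groups that did not overlap, 2 higher and 1 lower after Hlxb9 siRNA. Among all probe sets 15.6% did not overlap, 8.27% higher and 7.29% lower. All 3 differences within equal numbers had 1 sign for 5 of 17 members, beside 34% of all probe sets. The median difference of the members was 0.04 log2, with 11 positive and 6 negative, and that of all probe sets 0.0041.

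The array numbers, whose meaning the labels do not give, are a contrast that the choice of members did not use. Limma's moderated F test of the number, with the siRNA in the fit, called 0 of 17 member probe sets (adjusted p from 0.443 to 0.983), beside 0.00666% of all probe sets. At an unadjusted p of 0.05 there was 1 member, 1444052_at of Flt4 (adjusted p = 0.443), beside 7.95% of all probe sets. Calls over the whole table moved from 0 to 3459 when single arrays were left out, the most without Hlxb9 siRNA replicate 3 (3459) and without control replicate 3 (38), so this F test is not steady at this number of arrays.

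The genes most like Vegfa over the 6 arrays, by Pearson r with 1420909_at, were Dll3 (0.983), Ect2 (0.980), Npat (0.977), Pnrc2 (0.972) and Dpy19l4 (0.972). They were taken from 4964 genes with a range of at least 0.5 log2 and signal over the median on at least 3 arrays, of which 84 had an r above 0.9. Such values are a description over 6 arrays that share the siRNA groups and array quality. Ect2, a guanine nucleotide exchange factor of cytokinesis, differed by -0.46 log2 and Dll3, a Notch ligand, by -0.27.

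The genes around the family were read from 6 lists with 112 genes, each gene read on its brightest probe set. None passed (0 of 112, limma adjusted p from 0.645 to 0.999), as for 0% of all 18193 genes. At an unadjusted p of 0.05 there were 8, or 7.14%, beside 7.95% of all genes. Differences were positive for 67 and negative for 45.

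Coreceptors and extracellular partners had 0 of 22 genes higher and 0 lower past the threshold, a median difference of 0.05 log2 and 12 positive signs. Nrp2, the neuropilin that binds Vegfc with Flt4, read 5.13, 5.20 and 5.47 log2 in the Hlxb9 siRNA arrays, against 4.90, 4.76 and 5.18 in the control siRNA arrays. The groups overlapped by a narrow margin and the difference was 0.32 ± 0.15 (SE), with its other probe sets at 0.27, 0.27 and -0.01. With array weights Nrp2 was called (0.45 log2, limma adjusted p = 0.0496), beside 2.51% of all probe sets. The weighted fit did not call it on leaving out any single array. Sdc2, a heparan sulfate proteoglycan of the cell surface, differed by 0.23 ± 0.11 with groups that did not overlap, and Hspg2, the basement membrane proteoglycan perlecan, by -0.34 ± 0.15. Other probe sets differed by 0.43, -0.06 and 0.28 for Sdc2 and by -0.50 for Hspg2.

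Downstream of the receptors, 33 of 40 listed signalling genes were measured here, with 0 higher and 0 lower past the threshold and a median of 0.04 log2. Nfatc2, a transcription factor activated by calcineurin, differed by 0.33 ± 0.11 (SE), but its 5 other probe sets ranged from -0.27 to 0.17. The GTPase Cdc42 differed by -0.24 ± 0.10 and the kinase Src by -0.32 ± 0.13, both with groups that did not overlap. The other probe sets of Cdc42 differed by -0.34, -0.06 and 0.02. Src was read on a dim probe set, at the 27.8th percentile, and its other probe set differed by -0.15.

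Of 18 regulators of VEGF transcripts, 0 were higher and 0 lower past the threshold, with a median of 0.04 log2. Hif1a, the oxygen-regulated activator of Vegfa, differed by -0.22 ± 0.13 (SE), with its other probe sets at 0.05, -0.24 and -0.17. The prolyl hydroxylases Egln3 and Egln1, which mark it for degradation, differed by 0.37 ± 0.18 and 0.23 ± 0.13, and Egln1 by 0.11 without control replicate 3. Their other probe sets differed by 0.10 (Egln3) and 0.08 (Egln1). In the hypoxia response list 14 of 15 genes had a positive difference on their brightest probe set, beside 50.6% of all genes. Other probe sets were negative for Pgk1 (-0.36 and -0.62), Pfkfb3 (-0.09) and P4ha1 (-0.11). They had both signs for Pdk1 and Slc2a1, and were positive for Mxi1, Ndrg1 and Vldlr. The list had a median of 0.16 log2 (all genes 0.0023) and 0 past the threshold in either direction. That median was 0.08 without control replicate 3. For the siRNA, 0 genes of the list had an unadjusted limma p under 0.05, beside 7.95% of all genes. Many genes of the list had an unadjusted p under 0.05 in limma's F test of the array number, beside 7.95% of all probe sets. That p was 0.00035 for Ldha, 0.0018 for Adm, 0.0048 for Pdk1 and 0.0057 for Slc2a1. It was 0.0064 for Ankrd37, 0.0089 for Bnip3, 0.021 for Mxi1 and 0.028 for P4ha1. The others had a higher p, such as Pgk1 (0.38) and Hk2 (0.74). None of the list was called after adjustment, and these genes were named after their F test values were seen. Genes that move together are not separate observations, so the 14 signs are a description. Adm, encoding the vasodilator adrenomedullin, was the exception at -0.56 ± 0.27, on an _x_at probe set, and Mxi1 and Ankrd37 differed by 0.37 ± 0.26 and 0.31 ± 0.23, or 0.06 and 0.15 without control replicate 3. The other probe set of Adm differed by -0.20 and that of Mxi1 by 0.09.

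**Figure D4:**
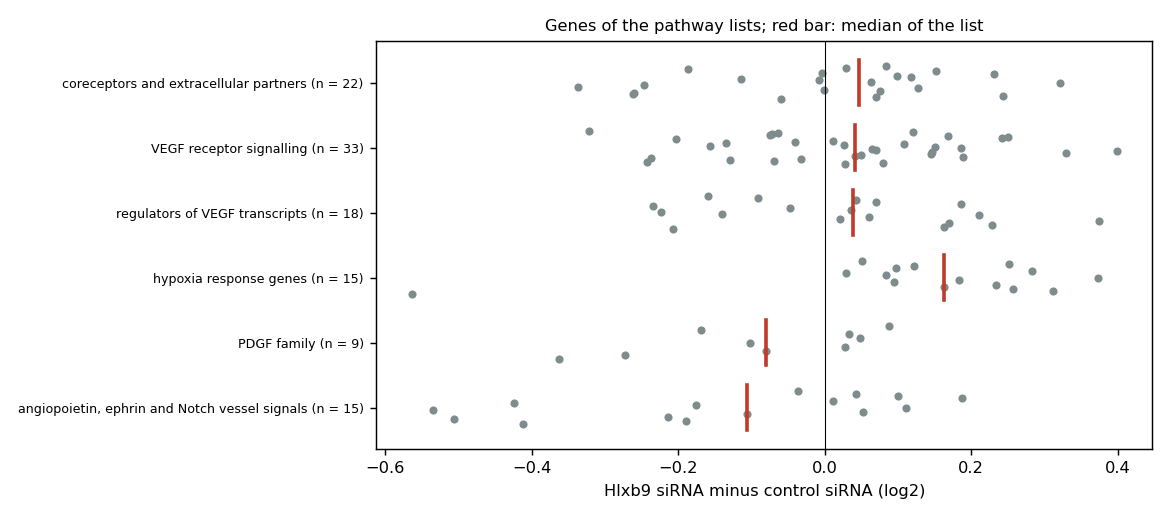
Difference of Hlxb9 siRNA minus control siRNA in log2 (x axis) for each measured gene of the 6 lists (y axis), with a red bar at each list's median. Each gene is read on its brightest probe set. The hypoxia response genes, except Adm at -0.56, lie right of 0 with a median of 0.16, and the medians of the PDGF and the angiopoietin, ephrin and Notch lists lie at -0.08 and -0.11.

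Endothelial cells are the usual source of Flt1, Kdr and Flt4. Of 15 endothelial markers, all measured, 12 stood below the 50th percentile and 3 exceeded the median of all values on every array. Their summed linear signal was 395 to 448 in the Hlxb9 siRNA arrays, against 415 to 521 in the control siRNA arrays. Differences were negative for 12 of 15 and the median was -0.06 log2, with 0 past the threshold. Egfl7, a secreted endothelial protein gene, differed by -0.42 with groups that did not overlap, or by -0.21 without control replicate 3. The brightest were Esam, Plvap and Egfl7, while the defining markers Pecam1 and Cdh5, named after their values were seen, stood at the 20.9th and 15.9th percentiles. Prox1, Lyve1 and Reln of the 4 measured lymphatic markers exceeded the median on every array, and their list summed to 929 to 2320 after Hlxb9 siRNA, against 1005 to 2094 after control siRNA. Reln made up most of that sum and was low on both arrays numbered 3, at 9.38 after Hlxb9 siRNA and 9.56 after control siRNA. The labels name a single cell line, MIN6, and no endothelial cells. The part of other cells in the receptor values was not tested, and fewer cells of a type cannot be told apart from less RNA per cell in these samples.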

How the data were processed

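Expression was measured on 6 Affymetrix mouse arrays. The authors deposited RMA signal in log2 units, a column for each array; the submitters' processing notes name RMA and Partek but no version. Settings and genome build: not given in the sources used here. Arrays carry no depth, so their number sets the precision.

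Of 45101 probe sets, 64 array controls were set aside. In the platform annotation 34945 of the other 45037 have 1 symbol, 932 several and 9160 none. Entrez identifiers of 34741 matched RefSeq (GRCm38.p6), which changed 0 symbols. Limma 3.58.1 (R 4.3.3) compared the groups with lmFit and eBayes, no covariate, two-sided, and Benjamini-Hochberg adjusted p-values over the 45037 (threshold 0.05). Errors of differences are moderated standard errors. The F test of the number used siRNA and number as terms. Both fits were run on simulated data with independent noise. The planted changes were larger than any member difference between the siRNAs, so these runs say nothing of power at the differences reported here.

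Members and lists were chosen with earlier results of these data known. Named are Mnx1, all member probe sets, up to 3 genes of each pathway list by smallest unadjusted p, up to 3 of each marker list by highest mean, and the 5 genes most like the member of highest percentile. Deviations from the group means correlated at 0.155, 0.165 and 0.202 between arrays of equal number. Between arrays of different numbers they ran from -0.206 to 0.072. Equal numbers were treated as pairs in the replicate block and in the differences within equal numbers, while the main test used no pairing. This pairing comes from the values, not the labels. Alternatives were the replicate block, median centring, repeated quantile normalization, an offset of 32, dim probe sets left out, a variance trend, array weights, plain _at probe sets, other thresholds, gene means over probe sets, and leaving out each array.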

Additional observations from a re-analysis of the deposited data

How the results depend on the processing

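With the replicate block limma called 0 probe sets, 0 members and 0 pathway genes, as without it, and it changed no other call. Array weights called 1132 probe sets (2.51% of all), 1 member and 5 pathway genes (Nrp2, Nfatc2, Csf1r, Efnb2 and Angpt1, 4.46% of 112). An unadjusted limma p of 0.05 gave 3430, 2 and 8. Array weights without each array in turn, chosen after seeing the data, called 0 of each. Without each array in turn the unweighted fit called 0 of each, as did the other alternatives. The number test called 3 probe sets, 0 with the offset, 0 without dim probe sets, 3579 at an unadjusted p of 0.05, and from 0 to 3459 with an array left out. The cause was not tested.

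Mnx1 stayed between -0.38 and -0.14 log2 over its 14 alternatives and was not called in any. Over the alternatives Vegfd ranged from 0.37 to 0.68 on 1438953_at and from 0.31 to 0.61 on 1438954_x_at, Vegfa from -0.25 to -0.13 on 1420909_at, and Vegfc from -0.21 to -0.11 on 1439766_x_at, all without a change of sign. Signs turned for Vegfa 1451959_a_at in 5 of 13 alternatives, for Flt1 1451756_at in 6 of 13, for Vegfd 1449528_at in 3 of 13, for Vegfb in 1 of 13, and in 2 each for Pgf, Flt1 1419300_at, Flt1 1454037_a_at and Flt4 1444052_at. Array weights moved Pgf from 0.08 ± 0.17 (SE) to -0.20 and Flt1 1419300_at from 0.05 ± 0.14 to 0.30. The SD between control replicates was 0.34 for Pgf and 0.24 for this Flt1 probe set. The number of arrays, and the standing apart of control replicate 3, limit what a difference of this size can show.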

Other observations

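The PDGF list holds the PDGF ligands, which share the cystine-knot fold of VEGF, and the PDGF receptors. It also holds the receptor kinases Csf1r, Kit and Flt3, which are not PDGF receptors. The list had 0 of 9 genes past the threshold in either direction and a median difference of -0.08 log2, or -0.03 without control replicate 3. At an unadjusted limma p of 0.05 there was 1, Csf1r, beside 7.95% of all genes. Csf1r, the macrophage growth factor receptor, read 3.60, 3.52 and 3.51 log2 in the Hlxb9 siRNA arrays, against 3.80, 3.98 and 3.93 in the control siRNA arrays. Each array of Hlxb9 siRNA was under each control, at a dim level, with a difference of -0.36 ± 0.10 (SE), and its other probe sets differed by 0.06 and -0.21. Flt3, a receptor of blood progenitors, differed by -0.27 ± 0.14 (-0.15 without control replicate 3) and Pdgfra by -0.17 ± 0.12. In the list of 8 macrophage and leukocyte markers, Cd68 was brightest and differed by 0.54 ± 0.13, while Csf1r, also in that list, differed in the opposite direction. The list summed to 224 to 238 in linear signal after Hlxb9 siRNA, against 178 to 205 after control siRNA. Cd68 made up most of that sum, and 5 of the 8 differences were negative, with a median of -0.08 log2. The pericyte and fibroblast list, led by Col1a1, Pdgfrb and Kcnj8, summed to 324 to 353 after Hlxb9 siRNA, against 284 to 329 after control siRNA. Its differences were positive for 7 of 11 genes, with a median of 0.09 log2, or -0.03 without control replicate 3.

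The angiopoietin, ephrin and Notch list had 0 of 15 genes past the threshold, 4 at an unadjusted limma p of 0.05 beside 7.95% of all genes, and a median of -0.11 log2 (-0.09 without control replicate 3). Efnb2, the ephrin of arterial endothelium, read 6.35, 6.67 and 6.61 log2 after Hlxb9 siRNA, against 7.21, 7.28 and 6.75 after control siRNA. The groups did not overlap and the difference was -0.53 ± 0.17 (SE), but its 3 other probe sets lay between -0.18 and 0.03. The Notch target Hes1 read 5.28, 5.47 and 5.41 after Hlxb9 siRNA, against 5.65, 5.72 and 6.05 after control siRNA, a difference of -0.42 ± 0.13, or -0.30 without control replicate 3. Angpt1, the ligand of the receptor Tek, differed by -0.41 ± 0.13 on a dim probe set and by 0.0004 on its other.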
